A study of Neurospora crassa with 2 samples.

Results

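The major facilitator superfamily (MFS) is the largest family of secondary transporters in filamentous fungi. Its proteins span the membrane as a bundle of helices and move a small solute down its own gradient or together with protons, without splitting ATP. Fungi use them to take up sugars, organic acids, vitamins, inositol and phosphate, and to export drugs and toxins, and for many genes of the family no substrate is known. The 43 genes described here are those of *Neurospora crassa* whose annotation names the superfamily or a monocarboxylate transporter, among the 9730 genes of the deposited table. Annotations with a sugar, glucose, hexose, monosaccharide, maltose, amino acid, peptide, drug, resistance or toxin term were left out, as were NCU00801 and NCU08114. Those words did not remove every such gene, since an α-glucoside transporter (NCU08858) and an efflux transporter (NCU03468) remain in the set. The rule used the annotation alone and no expression value. An annotation is a prediction, and no transport was measured.

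The data are 1 RNA-seq library of the wild type (WT) and 1 library of Δ*gul*-*1*, in which *gul*-*1* (NCU01197), the gene of an mRNA binding protein, is deleted. Both strains are filamentous *N. crassa*. The methods name a stock centre deletion strain and a cross of it to a *his*-*3* strain, and which of them was sequenced was not stated. Conidia of each were grown separately under constant light for 3 days in medium with Avicel (a microcrystalline cellulose), yeast extract and Tween 80, and RNA was taken from the harvested mycelia. The comparison asks which transporter transcripts differed between the strains on cellulose. Because there was 1 library per strain, no difference has a replicate, and values are given without a test or p-value. Levels are the deposited RPKM, in which reads are divided by exon length and by the reads assigned to genes in that library. Ratios are Δ*gul*-*1* over WT, with exact 95% intervals (Clopper-Pearson) from the reads, which cover counting error only and not the variation between cultures.

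The libraries held 20461987 (WT) and 20341292 (Δ*gul*-*1*) reads assigned to genes. Reads of the deleted gene numbered 21537 in WT and 304 in Δ*gul*-*1*, as the labels have it. The genes *act* (actin) and NCU08936 (*acw*-*1*, *ccg*-*15* in RefSeq), taken here as hyphal genes, were abundant in both libraries. They stood at 803 and 3349 RPKM in WT and 673 and 1430 RPKM in Δ*gul*-*1*. Neither was level, with ratios of 0.84 and 0.43, and the paper lists *acw*-*1* among its cell wall genes with lower expression in Δ*gul*-*1*. Of 5 genes of conidia and aerial hyphae, *eas* stood at 5793 RPKM in WT and 169 RPKM in Δ*gul*-*1*, and *con*-*8* at 706 and 511 RPKM, whereas *con*-*6*, *con*-*10* and *con*-*13* were higher in Δ*gul*-*1*. The 5 genes summed to 6671 RPKM in WT and 936 RPKM in Δ*gul*-*1*, and to 878 and 767 RPKM without *eas*; none was at 0. The part of these genes' cells in the transporter ratios was not tested. In RNA from whole mycelia, fewer cells of a type and less RNA per cell cannot be told apart.

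All 43 transporter genes had reads in both libraries, and each had at least 20 reads in at least 1 of them. In WT they ran from 0.49 RPKM (NCU09678) to 297 RPKM (NCU00988), with a median of 10.7 RPKM against 14.3 RPKM for all genes. In Δ*gul*-*1* they ran from 1.01 RPKM (NCU07938) to 289.9 RPKM (NCU00988), with a median of 12.8 RPKM against 16.0 RPKM for all genes. The set was dominated by 1 gene: NCU00988, annotated as an MFS quinate transporter, made up 28.4% of the summed RPKM of the 43 genes in WT and 21.4% in Δ*gul*-*1*. After it, by mean RPKM over the 2 libraries, came NCU05519, NCU00226, NCU00195, NCU03107 and NCU08428. Each of them is a gene whose annotation says MFS transporter and names no substrate. In WT alone the order differed: NCU03107 (32.5 RPKM) was below NCU05394 (38.4 RPKM), and NCU08428 (7.53 RPKM) was under the median of the set. Of the 43 genes, 20 passed 20 RPKM in at least 1 library, the expression floor of the study's methods, and 23 stayed below it in both.

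**Figure D1:**
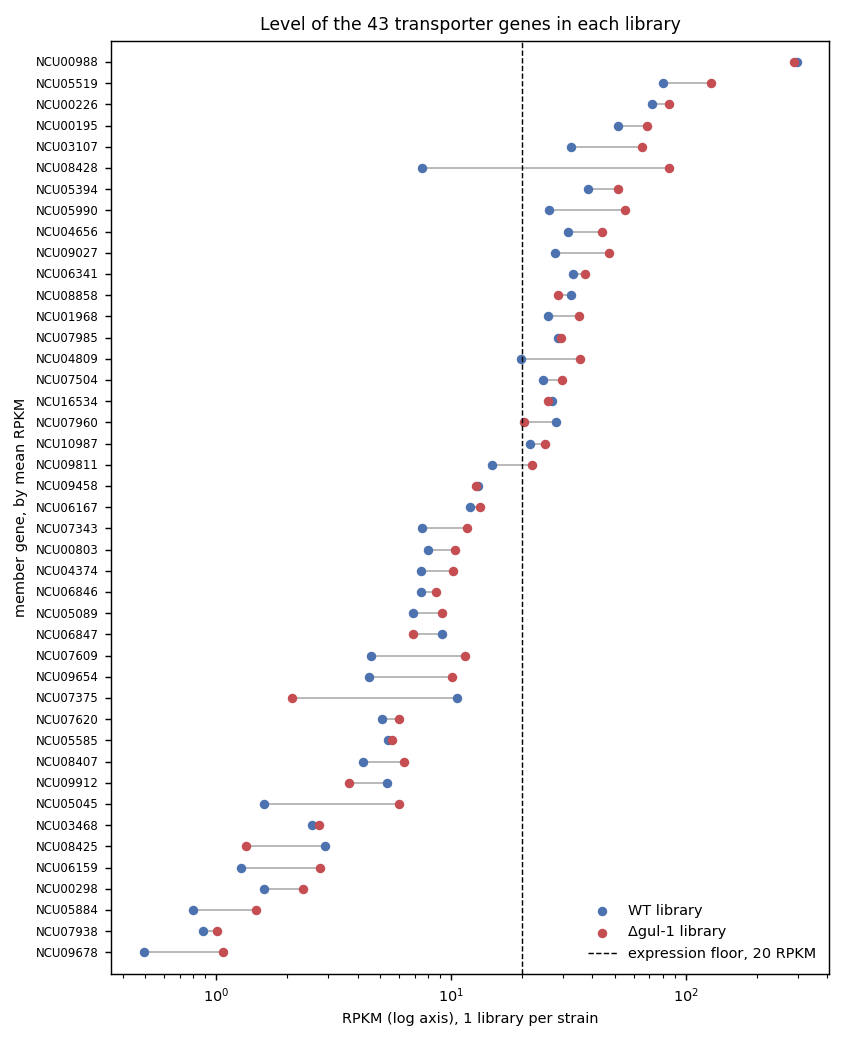
RPKM of the 43 transporter genes (log axis) in the WT library (blue) and the Δ*gul*-*1* library (red), 1 library per strain, ordered by mean RPKM, with the floor of 20 RPKM as a dashed line. NCU00988 stands far above the other genes in both libraries, and NCU08428 has the longest bar to the right of WT (7.53 to 84.4 RPKM).

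Most of the transporter genes had somewhat more RNA in Δ*gul*-*1*, and few differed strongly. Among the 20 that passed the floor, 2 exceeded WT by 2-fold or more in Δ*gul*-*1*, none was 2-fold or more below WT and the other 18 were closer than 2-fold. The shares over all 4409 genes that passed it were 3.88% above and 2.63% below. The higher genes were NCU08428 and NCU05990. With the reads scaled by TMM in place of the library total, NCU05990 had a ratio of 1.91 and 1 gene was left, while the counts over all genes went from 171 higher and 116 lower to 137 and 151.

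The set as a whole was slightly higher. Of the 20 genes past the floor, 16 had a ratio above 1, against 63.9% of all genes past the floor; with TMM scaling 15 of the 20 did, against 44.0% of all genes. Their median log2 ratio was 0.41, and that of all genes past the floor was 0.11, a gap of 0.30 that scaling does not alter. TMM lowered every log2 ratio by 0.15. Relative to the median of all genes, 15 of the 20 lay above and 5 at or below. Over all 43 genes, 34 were higher in Δ*gul*-*1* (30 with TMM scaling) and 9 lower, beside 67.2% higher among all genes with reads in both libraries. The 43 had a median log2 ratio of 0.40 against 0.15 for those genes. The summed RPKM of the 43 genes was 1043 in WT and 1352 in Δ*gul*-*1*. The sums stood at a ratio of 1.30 (1.17 with TMM scaling), or 1.42 without NCU00988. NCU08428 alone accounted for 24.8% of the increase in the sum. Counting error was minor for the genes past the floor, whose interval ends differed from the ratio by a median factor of 1.07, and larger below it, at 1.20.

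**Figure D2:**
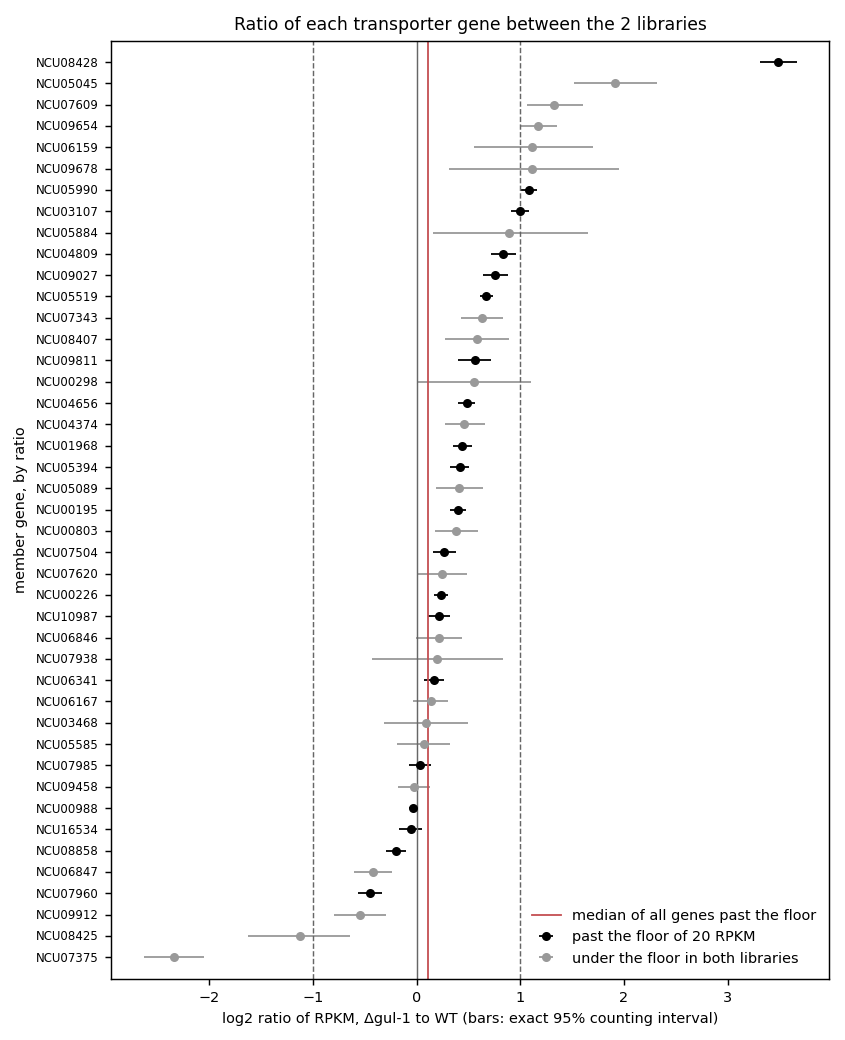
Log2 ratio of RPKM, Δ*gul*-*1* to WT, of each of the 43 transporter genes, with exact 95% counting intervals as bars. Black points are the 20 genes past the floor, grey points the 23 below it, dashed lines mark 2-fold, and the red line is the median of all genes past the floor (0.11). Most points lie to the right of that line, and NCU07375 and NCU08425 are the only ones left of the lower dashed line.

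**Figure D3:**
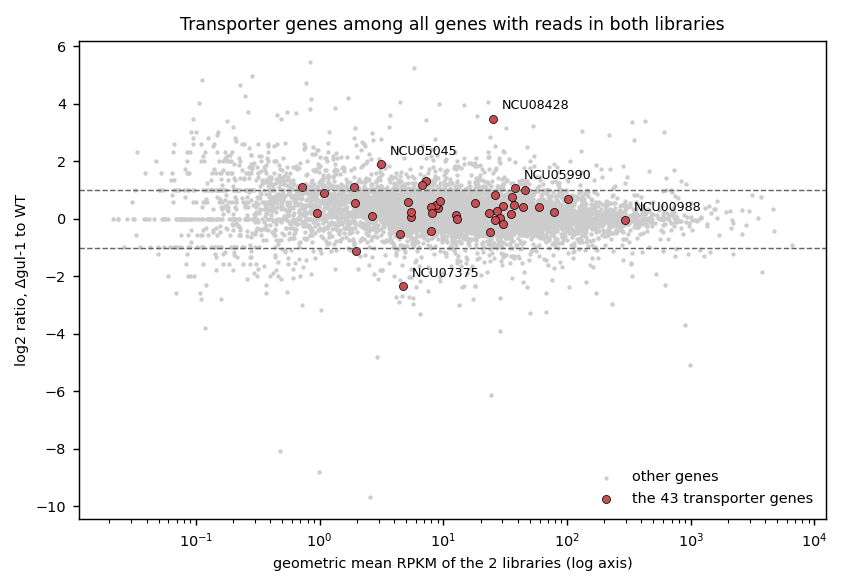
Log2 ratio, Δ*gul*-*1* to WT, against the geometric mean RPKM of the 2 libraries (log axis) for all genes with reads in both; the 43 transporter genes are red and dashed lines mark 2-fold. The transporter genes lie within the cloud of other genes apart from NCU08428, and the cloud widens toward low RPKM.

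NCU08428 (chromosome II, 4034930 to 4036895 on the NC12 assembly) was the transporter gene with by far the largest difference. Its 283 reads in WT made 7.53 RPKM, and its 3151 reads in Δ*gul*-*1* made 84.4 RPKM. It was thus below the floor in WT and among the 6 most abundant transporter genes by mean level. The ratio was 11.2 (interval 9.91 to 12.7), the 6th largest among the 4409 genes past the floor. Its annotation says no more than MFS transporter, so the solute it moves is not known from these sources.

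The gene on one side of NCU08428 differed in the same direction. NCU08429, a hypothetical protein gene that begins 585 bases after it, counted 770 reads in WT (20.1 RPKM) against 4331 in Δ*gul*-*1* (113 RPKM), for a ratio of 5.66 (interval 5.24 to 6.12). Farther along, NCU08431, also a hypothetical protein and picked out after its values were seen, had 23 and 138 reads (0.94 and 5.64 RPKM, a ratio of 6.04). Between NCU08429 and NCU08431 RefSeq lists NCU14142, which is not in the deposited table. On the other side the difference stopped at once. NCU08427, annotated as activator 1 subunit 3, a part of the clamp loader of DNA replication, overlaps NCU08428 by 76 bases in RefSeq and had 669 and 600 reads, a ratio of 0.90. NCU10392 and NCU10393, the next genes, had ratios of 1.13 and 1.08. Strand was not stated for the counting, so reads from the 76 shared bases cannot be assigned to NCU08427 or NCU08428 here.

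**Figure D4:**
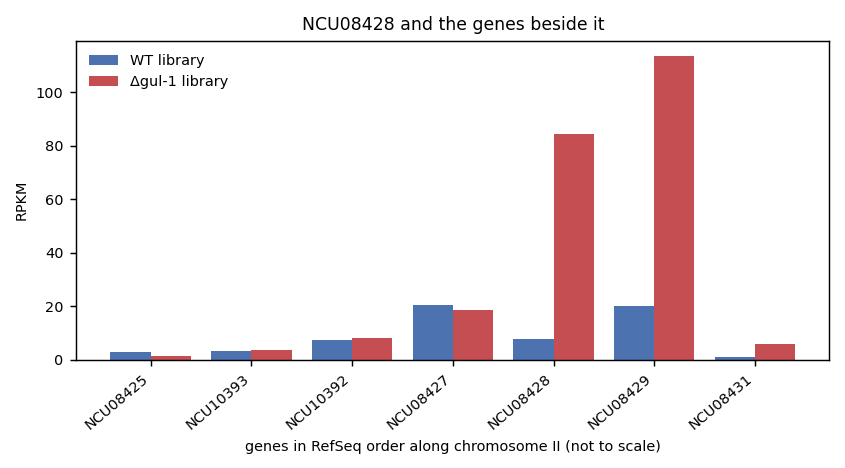
RPKM of NCU08428 and the genes beside it in RefSeq order on chromosome II, in the WT library (blue) and the Δ*gul*-*1* library (red), leaving out genes that the table does not list. NCU08428 and NCU08429 are tall in Δ*gul*-*1* alone (84.4 and 113 RPKM), and the 4 genes to their left reach at most 20.5 RPKM.

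NCU05990 (chromosome VI, 3166060 to 3169726), annotated as a cell surface receptor/MFS transporter, was the other gene past 2-fold. Its reads were 1672 in WT and 3513 in Δ*gul*-*1*, or 26.1 and 55.2 RPKM. The ratio of 2.11 had an interval of 1.99 to 2.24, whose lower end is under 2. NCU05990 shares 945 bases with NCU05991, a 3-keto-steroid reductase gene that had 570 and 528 reads (a ratio of 0.93), and its neighbour on the other side, NCU05989, had a ratio of 0.83. Just outside the threshold lay NCU03107 (chromosome I, 4584244 to 4586881), an MFS transporter gene with no named substrate. Its reads were 1633 in WT (32.5 RPKM) and 3243 in Δ*gul*-*1* (64.8 RPKM), and the ratio was 1.998 (interval 1.88 to 2.12). The intervals of NCU05990 and NCU03107 overlap, so counting error alone does not separate the gene inside the threshold from the one outside it. NCU03107 overlaps no other gene.

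Annotations that name the superfamily alone made up the largest group, with 27 genes, of which 14 passed the floor. Apart from NCU08428, the other 13 of these lay within 2-fold. All but NCU07960 had a ratio above 1, against 63.9% of all genes past the floor. With TMM scaling NCU07985 dropped below 1 as well, and the share over all genes was 44.0%. NCU05519, the most abundant of the group, counted 3177 reads in WT (80.0 RPKM) and 5034 in Δ*gul*-*1* (128 RPKM), for a ratio of 1.59 (interval 1.52 to 1.67). NCU09027 was at 27.7 and 46.9 RPKM, a ratio of 1.69 (interval 1.56 to 1.84). These intervals exclude 1, which says only that the libraries differed by more than counting error. Smaller ratios belonged to abundant genes too, such as NCU00226, at 71.98 and 84.9 RPKM (1.18), and NCU00195, at 51.6 and 68.0 RPKM (1.32). NCU09811 (1.47), NCU04656 (1.40), NCU01968 (1.36), NCU05394 (1.34), NCU07504 (1.20) and NCU06341 (1.12) were spread over the same range of small ratios. NCU07985, at 28.6 and 29.3 RPKM, had a ratio of 1.02 whose interval (0.95 to 1.10) includes 1. The exception, NCU07960, went from 1475 to 1073 reads and from 28.0 to 20.5 RPKM, a ratio of 0.73 (interval 0.68 to 0.79). It overlaps its neighbour NCU07959 by 233 bases, and NCU09811 overlaps NCU09810 by 197 bases.

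Quinate, a plant-derived organic acid, can serve *N. crassa* as a carbon source through the genes of the *qa* cluster. The set holds a pair of genes annotated as MFS quinate transporters, and neither differed much. NCU00988 (chromosome I, 6480932 to 6483194) counted 12475 reads in WT (297 RPKM) and 12122 in Δ*gul*-*1* (289.9 RPKM), and shares 132 bases with NCU00987. The ratio was 0.98 (interval 0.95 to 1.00, with 1 inside it), so the most abundant transporter gene of the set was level in the libraries on the deposited scale; with TMM scaling its ratio was 0.88. NCU05585 was read far less, with 243 and 253 reads (5.38 and 5.64 RPKM, a ratio of 1.05).

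The *qa* genes, a cluster on chromosome VII and not part of the set, were read for comparison. All 7 were higher in Δ*gul*-*1* on the deposited scale, beside 67.2% of all genes with reads in both libraries. The floor was passed by 2 of them, neither at 2-fold. TMM scaling lowers each of their log2 ratios by 0.15. *qa*-*Y*, the quinate permease gene of the cluster, went from 28.2 to 37.8 RPKM (1.34), and *qa*-*1S*, the repressor, had 23.0 and 27.5 RPKM (1.20). *qa*-*1F*, the activator, stood below the floor with 816 and 936 reads, a ratio of 1.15. The enzyme genes were at low levels. Reads of *qa*-*3*, the quinate dehydrogenase gene, were 37 and 142, a ratio of 3.86 (interval 2.67 to 5.70). For *qa*-*2*, the catabolic dehydroquinase gene, they were 156 and 293 (1.89), and for *qa*-*4*, the dehydroshikimate dehydratase gene, 48 and 63 (1.32, interval 0.89 to 1.96). *qa*-*X* had 161 and 309 reads (1.93). The ratios of NCU00988 and NCU05585 were lower than those of all 7 *qa* genes, but not always by more than counting error. The interval of NCU05585 overlaps those of *qa*-*1F*, *qa*-*1S*, *qa*-*4* and, narrowly, *qa*-*Y*. That of NCU00988 overlaps the interval of *qa*-*4* alone. Where intervals overlap, counting error does not separate the genes.

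Monocarboxylate transporters carry acids such as lactate and pyruvate, usually with a proton. The 5 genes with this annotation were mostly faint, and 1 of them passed the floor. That gene, NCU16534, counted 1347 reads in WT (26.8 RPKM) and 1289 in Δ*gul*-*1* (25.8 RPKM), with a ratio of 0.96 and an interval of 0.89 to 1.04. Below the floor, NCU05045 (chromosome VI, 3944720 to 3946893) had 68 and 254 reads, or 1.605 and 6.03 RPKM. Its ratio of 3.76 (interval 2.86 to 4.99) was the second largest of the 43 genes, at a level far below the floor. Its neighbours did not follow it at that size: *ena*-*1*, the gene of a cation-pumping ATPase, had a ratio of 0.595 and NCU05044 one of 1.83. Farther genes were picked out after their values were seen. Beyond NCU05044, NCU05043 (33 and 59 reads, 1.80) and NCU05042 (26 and 47 reads, 1.82) were also higher, and NCU05041 was level (1.02). Beyond *ena*-*1*, NCU05047 had 52 and 93 reads (1.80). NCU05089 (282 and 373 reads, 1.33), NCU00298 (50 and 73 reads, 1.47) and NCU06167 (549 and 599 reads, 1.10) lay within 2-fold. The interval of NCU06167 includes 1, and that of NCU00298 reaches down to 1.01.

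The remaining 9 genes carry another substrate or role in their annotation. Ratios above 1 were found for 7 of them, beside 67.2% of all genes with reads in both libraries. The exceptions were NCU08858 and NCU07375, joined by NCU03468 (0.96) with TMM scaling. The intervals of NCU03468 (0.81 to 1.41) and NCU06846 (0.99 to 1.35) include 1. NCU04809, annotated as a phospholipid transporter, counted 866 reads in WT (19.8 RPKM) and 1538 in Δ*gul*-*1* (35.3 RPKM), with a ratio of 1.79 and an interval of 1.64 to 1.94. NCU10987, named after the yeast protein Fmp42, was at 21.6 and 25.1 RPKM (1.16). The α-glucoside transporter gene NCU08858, of a class that takes up maltose-like sugars, was at 32.5 and 28.4 RPKM, a ratio of 0.87 (interval 0.82 to 0.93). Together with NCU05990 these are the 4 genes of the group past the floor. Below it, the genes for the vitamin pantothenate (NCU07620, 267 and 315 reads), for *myo*-inositol (NCU06846, 313 and 361 reads) and for efflux (NCU03468, 102 and 108 reads) had ratios of 1.19, 1.16 and 1.07. NCU05884, named after yeast Seo1, had 25 and 46 reads (1.85, interval 1.11 to 3.14).

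The phosphate transporter gene was the gene of the set with the smallest ratio. NCU07375 (chromosome I, 6171978 to 6174862) counted 615 reads in WT (10.7 RPKM) and 121 in Δ*gul*-*1* (2.11 RPKM). It was 5.05-fold lower, with a ratio of 0.20 (interval 0.16 to 0.24), but under the floor in both libraries and so outside the count. Its neighbour NCU07374 had 521 and 628 reads (1.21), and NCU16409, on the other side, had at most 1 read. Phosphate enters fungal cells through several carriers. NCU08743, annotated as an inorganic phosphate transporter without the letters MFS and outside the set (chosen after its values were seen), was at 98.0 and 88.3 RPKM, a ratio of 0.90. Its annotation does not say whether it brings phosphate into the cell.

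Below the floor, 5 of the 23 genes exceeded WT by 2-fold or more, 2 were 2-fold or more below WT and 16 were closer. Among all 3900 genes below the floor with reads in both libraries and at least 20 in 1, 8.85% were above WT by that much and 2.15% below. The higher ones were NCU05045, described above, and 4 genes with no named substrate. NCU07609 had 161 and 402 reads (4.56 and 11.5 RPKM, a ratio of 2.51, interval 2.09 to 3.03). NCU09654 had 376 and 843 reads (2.26, interval 1.99 to 2.55), and overlaps NCU11415, a gene with 22 and 21 reads, by 2178 bases. NCU06159 (39 and 84 reads) and NCU09678 (20 and 43 reads) had ratios of 2.17 and 2.16, with intervals of 1.47 to 3.25 and 1.245 to 3.88, and 1.95 each with TMM scaling. Depth limits these genes, since only the intervals of NCU05045 and NCU07609 lie wholly above 2. The lower genes were NCU07375 and NCU08425, which had 114 and 52 reads (2.91 and 1.33 RPKM, a ratio of 0.46, interval 0.32 to 0.64). Within 2-fold but lower were NCU06847 (574 and 426 reads, 0.75) and NCU09912 (330 and 225 reads, 0.69), both with intervals below 1. NCU07343 (1.55), NCU08407 (1.495), NCU04374 (1.38) and NCU00803 (1.31) were higher with intervals above 1, and those of NCU07938 (42 and 48 reads) and NCU09458 (697 and 681 reads) include 1.

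The 43 genes were spread over all 7 chromosomes, with 9 each on I and IV, 8 on II, 6 on VI, 5 on VII and 3 each on III and V. None has a RefSeq symbol other than its locus number. There were 3 pairs of neighbours with fewer than 10 genes between them, all on chromosome II. In each pair 1 ratio was above 1 and the other below it. NCU08425 and NCU08428 lie 7977 bases apart with 3 genes between them, and had log2 ratios of -1.12 and 3.49. NCU06847 and NCU06846 are next to each other, 2732 bases apart, at -0.42 and 0.21. NCU16534 and NCU05394 have 1 gene between them, at -0.05 and 0.42. In each pair the counting intervals of the ratios did not overlap, and none of these differences has a replicate. The intervals of NCU06846 (0.99 to 1.35) and NCU16534 (0.89 to 1.04) include 1, so the direction of each of these genes is within counting error.

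In RefSeq, 6 of the 43 genes overlap another gene, and both genes past the floor at 2-fold are among them. The 37 that overlap none had a median log2 ratio of 0.38. Their 15 genes past the floor were all within 2-fold, though NCU03107 lay at 1.998. Of the 15, 13 had a ratio above 1, against 63.9% of all genes past the floor. Of the 9 transporter genes at least 2-fold apart at any level, 17 adjacent genes are in the table. NCU08429 was 2-fold or more above WT, none was as far below, 14 were closer and 2 had no reads in WT. Among the 8985 genes with reads in both libraries, 735 were 2-fold or more above WT and 249 as far below. Exon lengths of the 43 genes ran from 1488 to 4096 bases, with a median of 2220 bases against 1935 bases for all genes.

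Set beside other transporter lists made from the annotation, the 43 genes were neither the highest nor the lowest. Their median log2 ratio of 0.40 stood between 0.82 for the 9 MFS genes for sugars and 0.02 for the 13 genes of the ABC list, whose proteins split ATP. In that list the annotations of NCU08920 and NCU01751 name the ATP-binding cassette but not a transporter, and the log2 ratio of NCU08920 is the median. The 13 MFS genes for drugs and toxins had a median of 0.83, but 1 of them passed the floor. Past the floor, 2 of 5 sugar MFS genes exceeded 2-fold, both upward, and 1 of 7 ABC genes did, downward. With 1 library per strain these differences between lists were not tested.

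**Figure D5:**
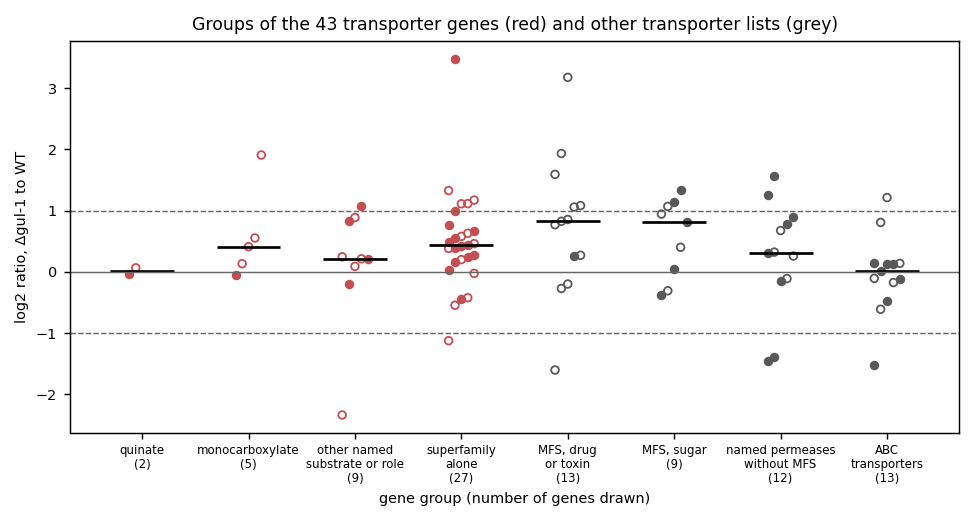
Log2 ratio, Δ*gul*-*1* to WT, of the genes in the groups of the 43 transporter genes (red) and in other transporter lists (grey). Filled points passed the floor of 20 RPKM, open points did not, black lines are medians and dashed lines mark 2-fold. The superfamily-alone group reaches from -1.12 to 3.49, and the sugar and drug lists have the highest medians (0.82 and 0.83).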

How the data were processed

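The authors mapped filtered Illumina reads to predicted transcripts of the *N. crassa* genome, version 12, with TopHat2 2.0.8b and counted reads unique to 1 gene with HTSeq 0.5.4p2 (versions from the submitters' processing notes); use of strand in counting: not given in the sources used here. The deposited table holds raw read counts per gene, the RPKM that the authors computed from them, exon lengths, and the authors' own NOISeq probability, which was not used. The deposited RPKM equalled reads over exon length and column total. Unlike reads from overlapping genes, near-identical gene copies could not be examined, since no sequences were used here.

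Ratios were taken from RPKM with no pseudocount, after the study's floor of 20 RPKM in at least 1 library and a threshold of 2-fold. No test was possible with 1 library per strain. Genes under the floor were counted at 20 reads or more. The steps were run on simulated counts with counting error only. These held no variation between cultures, so the run checks the computation and not the differences between strains. The members and lists were chosen with earlier results of these data known. A planned description of the proteins was not made. Named are all members past 2-fold, the most abundant, the largest and smallest ratios, those with a named substrate, those nearest the threshold, neighbours and *qa* genes; the other members are named for completeness. Monocarboxylic was read as monocarboxylate. All 9730 loci but 1 were found in RefSeq (NC12, 9729), the 43 members included. Alternatives were other scalings, floors, folds, a pseudocount and an interval wholly beyond 2-fold. Python 3.11.15, pandas 2.3.3, numpy 2.4.6, scipy 1.17.1 and, for TMM, edgeR 4.0.16 in R 4.3.3 were used.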

Additional observations from a re-analysis of the deposited data

How the results depend on the processing

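The direction of the set did not depend on the settings tried, and the count past 2-fold did. The median log2 ratio of the 43 genes stayed between 0.25 and 0.41. The ratio of summed RPKM was 1.30, but 1.17 with TMM scaling or median-of-ratios size factors and 1.249 when the 50 most abundant genes were left out of the library total. Of the 20 transporter genes past the floor, 1 was at least 2-fold higher with TMM scaling or with median-of-ratios size factors. The count was also 1 of 20 at 3-fold and for a counting interval wholly beyond 2-fold, and 6 of 20 at 1.5-fold. With a floor of 5 RPKM, 5 of 36 were at least 2-fold higher, and with no floor 7 of 43. Transporter genes at least 2-fold lower numbered 1 of 36 with a floor of 5 RPKM and 2 of 43 with no floor. There were none under the other settings. Over all genes, 317 were higher and 170 lower of 7138 with a floor of 5 RPKM. With a floor of 50 RPKM the counts were 87 and 75 of 1988, and with no floor 735 and 249 of 8985. Of the 4409 genes past 20 RPKM, 476 were higher and 254 lower at 1.5-fold. At 3-fold these counts were 72 and 43, and for an interval wholly beyond 2-fold 141 and 105. Under TMM scaling 4 of the 43 ratios crossed 1, none of them past 2-fold, and NCU05990 (1.91) was the only gene past the floor to lose its place beyond 2-fold; below the floor NCU06159 and NCU09678 did (1.95 each). No paired analysis was possible because there was 1 library per strain. Depth limits the genes with few reads.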

Other observations

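Transporter genes that name a substrate but not the superfamily went both ways. The list made from annotation words held 21 genes, of which 8 are not transporters (nicotinic acid synthesis, siderophore synthesis and *sre*); without these, which was decided after the data were seen, 13 were left. Among the 8 that passed the floor, 2 exceeded WT by 2-fold or more in Δ*gul*-*1* and 2 were as far below. The higher ones were NCU02238, annotated as the pantothenate transporter liz1, at 14.5 and 43.3 RPKM (a ratio of 2.98, interval 2.73 to 3.25), and the quinate permease gene NCU06138, at 22.8 and 54.3 RPKM (2.39, interval 2.21 to 2.57). The lower ones were the tartrate transporter gene NCU06305, at 21.4 and 7.85 RPKM (0.37, interval 0.32 to 0.42), and the l-fucose permease gene NCU05897, at 179 and 68.6 RPKM (0.38, interval 0.37 to 0.40). NCU06138 and NCU02238 share their substrate names with members of the set whose ratios were nearer 1: NCU00988 (0.98), NCU05585 (1.05) and NCU07620 (1.19). Other genes of these names were higher in Δ*gul*-*1*. NCU00782, also annotated as liz1 and past the floor, was at 15.8 and 29.6 RPKM (1.87, interval 1.69 to 2.07). The quinate permease gene *qa*-*Y* had a ratio of 1.34. The pantothenate transporter genes NCU04568 (17 and 27 reads) and NCU07820 (0 and 2 reads) were barely read.

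Among the MFS genes for drugs and toxins, NCU06860 alone passed the floor, at 26.5 and 31.7 RPKM (1.20). NCU00306, annotated as a multidrug transporter and picked out after its values were seen, had 452 and 148 reads (0.33, interval 0.27 to 0.40), the only one of the 13 to be 2-fold or more below WT. In the other direction, 3 genes with at least 20 reads were 2-fold or more above WT, all under the floor: NCU02023 with 3 and 27 reads (9.05, interval 2.79 to 46.6), NCU04886 with 140 and 295 reads (2.12) and NCU04391 with 69 and 143 reads (2.08). Of the ABC transporters, NCU03776 was at 73.0 and 25.4 RPKM (0.35, interval 0.33 to 0.36), and NCU00290, under the floor, had 147 and 339 reads (2.32, interval 1.91 to 2.83).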
